A study of Mus musculus with 8 samples.

Results

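The genes described here are 56 of the 23997 gene symbols measured by RNA-seq in mouse neural stem/precursor cells (NS/PCs), chosen by symbol because their proteins build the primary or the motile cilium. They are 25 genes of the primary cilium (14 Ift, 8 Bbs and 3 Tctn genes), 29 genes of the motile axoneme (14 dynein, 6 radial spoke, 5 tektin and 4 central apparatus genes), and Rpgrip1l and Arl13b. The rule of choice reads names only, but it was set with earlier results of these data known. The cells were from E11.5 telencephalon of the ICR mouse strain (embryonic day 11 in another label) and were plated in N2-supplemented medium with 10 ng/mL basic fibroblast growth factor. The control group (3 libraries) is labelled control with no further detail, and the Nfia group (3 libraries) came from cells transduced with Nfia, a transcription factor gene of the nuclear factor I (NFI) family. RNA was taken 3 days after transduction, and the labels do not give the vector, its promoter or the share of cells that carried it. A Flag ChIP and an IgG ChIP sample belong to the series and are not analysed here.

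A primary cilium is a single, immotile antenna on the surface of most vertebrate cells, and in neural precursors it projects into the ventricle and carries Hedgehog signalling proteins. It is built by intraflagellar transport (IFT), in which trains of the IFT-A and IFT-B complexes are carried outward by kinesin and back by a cytoplasmic dynein. The BBSome, a coat-like complex of Bardet-Biedl syndrome proteins, moves membrane proteins out of the cilium, and the tectonic proteins belong to the transition zone, a gate at its base. Motile cilia, which ependymal cells carry in tufts, use IFT as well and add axonemal dyneins, radial spokes, tektins and a central apparatus.

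The transcription factors of the RFX family bind the X-box in promoters of many cilium genes, and NFI factors bind a palindrome, TTGGC followed after 5 bases by GCCAA, or a single arm of it. Promoter windows from RefSeq (GRCm38.p6, 250 bases before to 50 bases after the annotated start) were at hand for 51 of the 56 genes and were searched on both strands. Paired X-box letters, GTTNCC followed after 0 to 3 bases by GGNAAC, were found in 4 of the 51 cilium gene windows (7.84%) and in 0.821% of the 27025 windows of all genes. All 4 belong to primary cilium genes (Tctn1, Tctn3, Bbs7 and Ift57). A single X-box arm (GTTGCC or its complement GGCAAC) was present in 23 of 51 (45.1%) against 12.7% of all windows. The NFI palindrome was found in 0 of the 51 and in 0.0407% of all windows. A single NFI arm (TTGGC or its complement GCCAA) was found in 25 of 51 (49.0%), near the 47.0% of all windows. The X-box and NFI arms share bases in 1 cilium gene window, that of Bbs1. These are matches of letters and show no binding.

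The first set of sequences shows the paired X-box letters in capitals, in the 4 genes that hold them. Ift57 is shown with 100 bases before its start, and the others with 24 bases, because their match lies after the start or the start lies inside the gene's span.
Tctn1 (chr5:122264411-122264434, minus strand): ggctgtgactGTTGCCCGGGCAAC
Tctn3 (chr19:40612354-40612377, minus strand): ccagcgGTTGCCAGGTAACgggaa
Bbs7 (chr3:36613492-36613515, minus strand): ccccgGTTGCCTTGGAAACcggcc
Ift57 (chr16:49699190-49699289, plus strand): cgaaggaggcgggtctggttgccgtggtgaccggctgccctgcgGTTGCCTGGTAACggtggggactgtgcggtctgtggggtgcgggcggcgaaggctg
The next set shows the single X-box arm in capitals in Tctn2, Bbs1 and Bbs5, the 3 genes with that arm that fell with Nfia as described further on; in each it lies after the start.
Tctn2 (chr5:124598753-124598776, plus strand): tgattggtgGTTGCCatggctgca
Bbs1 (chr19:4906612-4906635, minus strand): gctgagctgGTTGCCaaggcgacg
Bbs5 (chr2:69647197-69647220, plus strand): gtgacaaagccggcgcGTTGCCtt
The last set shows an NFI arm in capitals before the starts of Bbs2 and Ift22, which also fell. The start used for Bbs2 lies 860 bases inside the gene's span, and that for Bbs5 323 bases inside.
Bbs2 (chr8:94098733-94098756, minus strand): ggggtgcagcTTGGCtgacacgct
Ift22 (chr5:136908050-136908149, plus strand): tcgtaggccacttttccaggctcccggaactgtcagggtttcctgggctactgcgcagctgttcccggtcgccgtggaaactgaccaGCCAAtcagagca
None of the 4 genes with paired X-box letters passed the test between Nfia and control. Of the 8 genes that fell and had a window, 3 held a single X-box arm and 6 a single NFI arm, counts too small to compare with the other cilium genes.

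The values are FPKM (fragments scaled by transcript length and by library size), so levels can be compared between genes; means are given ± SD over 3 libraries. Library totals lay between 474010 and 511700 FPKM, and the absolute depth is unknown. From the steps between low values, depth relative to control 1 lay between 0.760 (Nfia 3) and 1.11 (Nfia 1). Nfia was 19.8, 23.9 and 22.2 FPKM in the control and 69.0, 85.6 and 103.5 FPKM in the Nfia libraries. The 10 neural precursor markers were all present: the lowest mean over the 6 libraries was 14.3 FPKM for Pax6. Of the 10, 4 rose and 3 fell with Nfia, where 16.1% and 15.1% of all genes tested did so. Nes rose by 63.9% and Slc1a3 by 51.0%, Pax6 fell by 38.2% and Sox1 fell by 29.5% (limma, adjusted p = 0.000469, 0.000488, 0.00101 and 0.00195). Sox2 was at 229 and 238 FPKM in control and Nfia (limma, adjusted p = 0.437). The labels do not tell separate cultures from repeat libraries, so p-values measure the spread between libraries, which may be technical.

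Primary and motile cilium genes stood at very different levels. The 25 primary cilium genes had means over the 6 libraries of 2.04 to 42.4 FPKM with a median of 7.62, and every one passed the filter of 1 FPKM used for testing. The 29 motile cilium genes had means of 0.00521 to 14.6 FPKM with a median of 0.116, and 4 of them passed the filter (Rsph3a, Rsph3b, Rsph9 and Tekt2). In each library the median primary gene was at 7.08 to 8.69 FPKM and the median motile gene at 0.0862 to 0.153 FPKM. Replicates agreed more closely for the primary genes. Their coefficient of variation in the control libraries had a median of 5.44% (range 1.49% to 13.1%), against 34.7% (2.17% to 173.2%) for the motile genes. The classes also differ in level: the motile gene with 2.17% was Rsph3b, at 13.6 ± 0.294 FPKM in control. The part of level in this contrast was not tested.

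**Figure D1:**
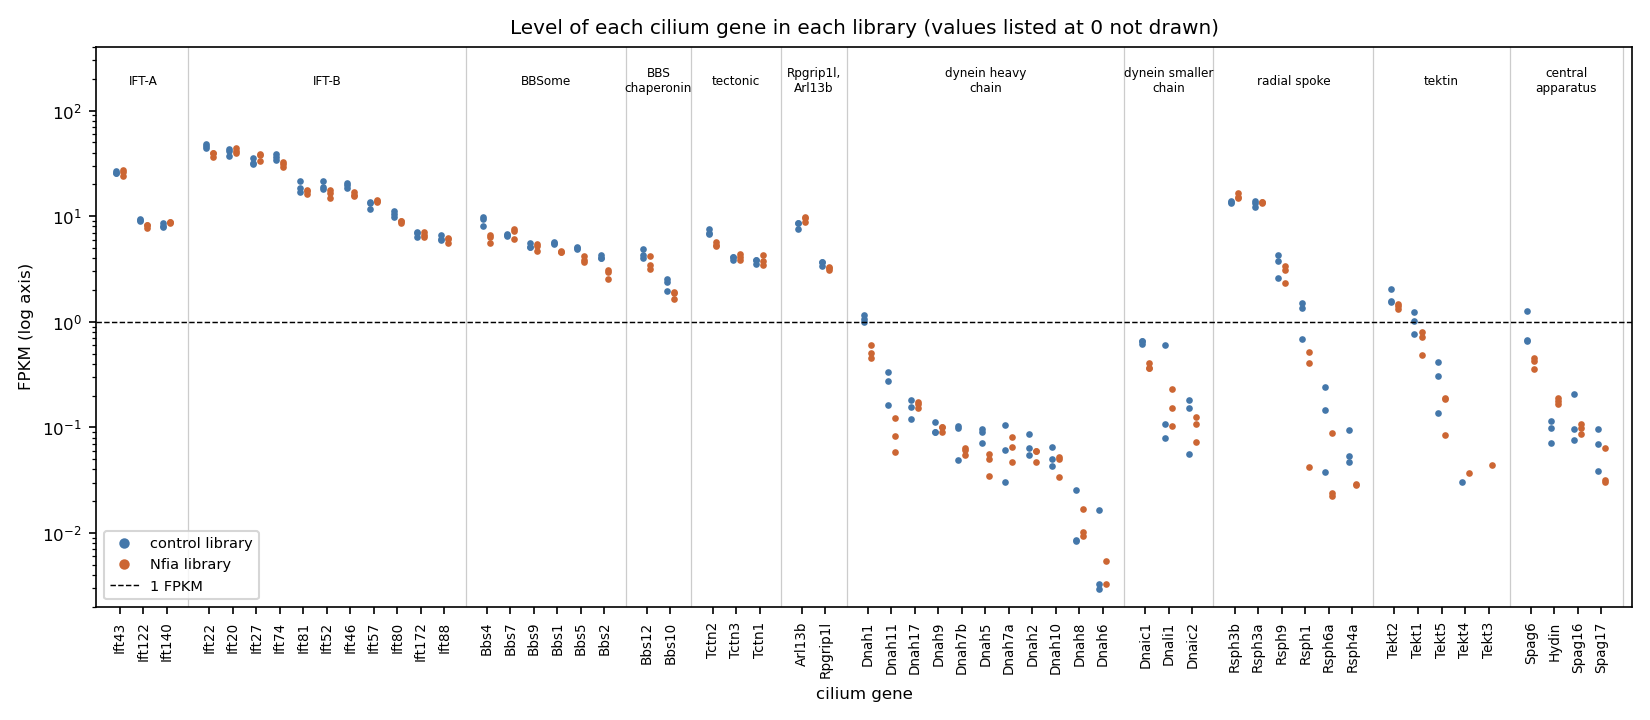
FPKM on a log axis for each of the 56 cilium genes, grouped by role. Each point is 1 library, control in blue and Nfia in orange, the dashed line marks 1 FPKM, and values listed at 0 are not drawn. The primary genes on the left all lie above the line, and 25 of the 29 motile genes have a mean below it.

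Differences between the groups were tested with limma over the 12537 genes whose mean reached 1 FPKM. A log2 difference is the Nfia mean less the control mean of log2(FPKM + 1), a scale that shrinks the change of low genes, and p-values were adjusted by Benjamini-Hochberg across those genes. At an adjusted p under 0.05, 31.3% of the genes changed (16.1% higher and 15.1% lower). These shares are the background for every count of called genes from this fit. Of the 25 primary cilium genes, 10 were lower and 0 higher, with a median log2 difference of -0.18 against 0.01 for all genes. Of the 4 motile genes tested, 1 was higher and 0 lower, with a median of -0.07. At an unadjusted p under 0.05, 0 primary genes were higher and 0 of the motile genes tested lower. Neither Rpgrip1l nor Arl13b passed. No test of the difference between the primary and motile genes was made. In 12 of the 25 primary genes every Nfia library lay below every control library and in 0 above, where 22.9% and 24.7% of all genes tested did so. The count of 10 fell to 5 without control 1, control 3 or Nfia 2, to 6 without Nfia 1 or Nfia 3, and to 8 without control 2. With all libraries but no filter on low values it was 7, in a fit where 9.55% of all genes were lower.

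Beside these changes, neuron markers were lower with Nfia: 14 of 16 fell and 1 rose, their summed level was 2101 to 2213 FPKM in control and 1364 to 1387 FPKM with Nfia, and none was listed at 0 in all libraries. The part of these and of the precursor markers in the changes of the cilium genes was not tested. In RNA of whole cultures, fewer cells of a type and less RNA per cell cannot be told apart.

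The BBSome genes held the largest decreases among the primary cilium genes. Bbs4 (chr9:59321966-59353508 in GRCm38), whose protein joins the BBSome to centriolar satellites, was at 9.77, 8.01 and 9.41 FPKM in the control libraries and 6.63, 6.34 and 5.57 FPKM in the Nfia libraries. The groups did not overlap, and Bbs4 fell by 31.8% (log2 difference -0.49, SE 0.09, adjusted p = 0.00839). Bbs2 (chr8:94067952-94099369), a subunit of the BBSome core, was at 3.98, 4.33 and 4.00 FPKM in the control libraries and 2.96, 2.53 and 3.08 FPKM in the Nfia libraries. Here too each Nfia library was below each control library, and Bbs2 fell by 30.3% (log2 difference -0.41 with an SE of 0.08, adjusted p = 0.0118). Leaving out any 1 library kept both calls.

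Bbs5 and Bbs1 changed less. Bbs5 (chr2:69646848-69667571), a lipid-binding subunit, was at 5.08, 4.90 and 4.96 FPKM in the control libraries and 4.23, 3.84 and 3.68 FPKM in the Nfia libraries, and its libraries separated by group (log2 difference -0.28 with an SE of 0.07, adjusted p = 0.0199). Bbs1 (chr19:4886878-4906653), the subunit that binds the GTPase Arl6, was at 5.51, 5.65 and 5.51 FPKM in the control libraries and 4.62, 4.56 and 4.66 FPKM in the Nfia libraries, with little spread within either group (log2 difference -0.22 with an SE of 0.05, adjusted p = 0.0203). Bbs5 lost its call without control 1, control 3, Nfia 2 or Nfia 3 (with adjusted p = 0.0531 to 0.0686) and Bbs1 without control 1, control 2, control 3, Nfia 1 or Nfia 2 (0.0501 to 0.0697). With no filter on low values Bbs1 had an adjusted p of 0.0517.

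The other BBSome genes among the 56, Bbs7 and Bbs9, did not pass the test. Bbs7, a partner of Bbs2 in the core, was at 6.84, 6.42 and 6.58 FPKM in the control libraries and 7.20, 7.53 and 6.05 FPKM in the Nfia libraries, with the Nfia libraries on both sides of the controls (adjusted p = 0.653; 95% interval of the log2 difference -0.14 to 0.25). Bbs9 was at 5.27 ± 0.280 FPKM (control) against 5.09 ± 0.395 FPKM (Nfia) (adjusted p = 0.683; interval -0.22 to 0.13). Of the subunit genes with other names, Ttc8 was lower (log2 difference -0.25 with an SE of 0.06, adjusted p = 0.0167), and lost its call without control 2, control 3, Nfia 2 or Nfia 3 (with adjusted p = 0.0561 to 0.0639), and the small subunit gene Bbip1 stood at 27.9 and 27.9 FPKM (log2 difference 0.00, adjusted p = 0.998). Over the 8 BBSome genes, 5 were lower and 0 higher.

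The ratio of subunits within a library, which no scaling of the library can alter, was compared for a gene that fell and a gene that did not pass. The ratio of Bbs4 to Bbs7 was 1.43, 1.25 and 1.43 in the control libraries and 0.921, 0.842 and 0.921 in the Nfia libraries. That of Bbs2 to Bbs7 was 0.581, 0.674 and 0.608 against 0.411, 0.336 and 0.510. Neither ratio overlapped between the groups. These pairs, and those of the tectonic and IFT genes below, were chosen after their values were seen. An exact two-sided permutation test of the log2 ratios gave p = 0.1 for each pair. That is the smallest value 3 against 3 libraries can give, so the test cannot decide.

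The chaperonin-like genes Bbs10 and Bbs12, whose proteins help the BBSome core to assemble, were at lower levels than most subunits. Bbs10 was at 2.36, 2.51 and 1.94 FPKM in the control libraries and 1.86, 1.91 and 1.66 FPKM in the Nfia libraries, all Nfia values below all control values, but the difference did not pass (adjusted p = 0.158). Bbs12 was at 4.41 ± 0.463 FPKM (control) against 3.63 ± 0.530 FPKM (Nfia) (adjusted p = 0.153). Mkks, the third chaperonin-like gene, did not pass either (adjusted p = 0.656).

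**Figure D2:**
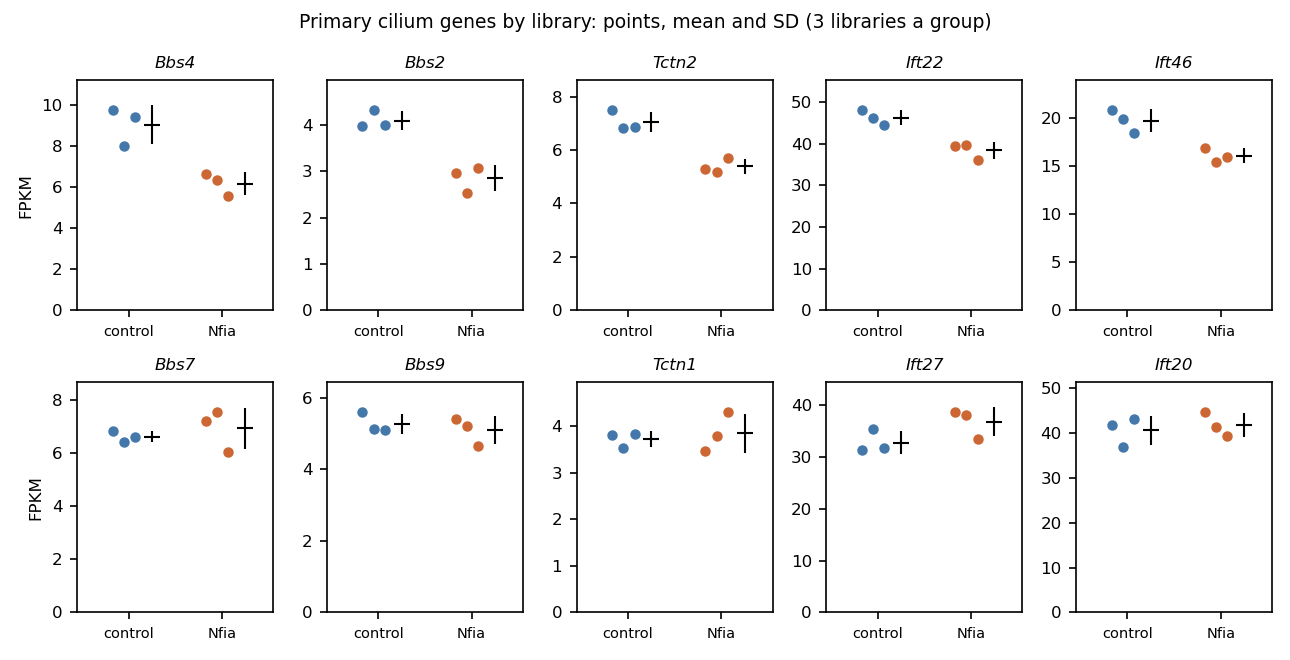
FPKM of 10 primary cilium genes in each library, with the mean and SD of 3 libraries beside the points; each axis starts at 0. Bbs4, Bbs2, Tctn2, Ift22 and Ift46 in the top row have no Nfia library above a control library, whereas Bbs7, Bbs9, Tctn1, Ift27 and Ift20 in the bottom row overlap between the groups.

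Among the IFT genes, 5 of 14 were lower and 0 higher, with a median log2 difference of -0.10. The most abundant was Ift22 (chr5:136908150-136914509), a small GTPase-like protein of the IFT-B core, at 48.1, 46.3 and 44.5 FPKM in the control libraries and 39.5, 39.8 and 36.1 FPKM in the Nfia libraries. The groups were apart, and Ift22 fell by 16.9% (log2 difference -0.26 with an SE of 0.05, adjusted p = 0.0117), which held without any 1 library. Ift46 (chr9:44770456-44792714), the core subunit known for carrying outer dynein arms, was at 20.8, 19.9 and 18.4 FPKM in the control libraries and 16.9, 15.4 and 15.9 FPKM in the Nfia libraries, also without overlap (log2 difference -0.28 with an SE of 0.06, adjusted p = 0.0141). It lost its call without Nfia 2 (with adjusted p = 0.0581).

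Ift74 (chr4:94603266-94693233), whose protein pairs with that of Ift81 to carry tubulin, was at 38.7, 34.0 and 36.1 FPKM in the control libraries and 30.9, 32.4 and 29.0 FPKM in the Nfia libraries (log2 difference -0.23 with an SE of 0.06, adjusted p = 0.0328). Ift81 itself was at 19.0 ± 2.44 FPKM (control) against 16.96 ± 0.826 FPKM (Nfia) and did not pass (adjusted p = 0.261). Ift80 (chr3:68892499-69004680), of the peripheral IFT-B complex, was at 11.3, 9.86 and 10.5 FPKM in the control libraries and 8.65, 8.95 and 9.03 FPKM in the Nfia libraries (log2 difference -0.22 with an SE of 0.06, adjusted p = 0.0284). Ift74 and Ift80 separated by group in all libraries, but Ift74 lost its call without control 1, control 3, Nfia 1 or Nfia 3 (with adjusted p = 0.0791 to 0.0900) and Ift80 without control 1, control 3, Nfia 1, Nfia 2 or Nfia 3 (0.0655 to 0.0888). The span of Ift74 overlaps that of Lrrc19. Ift52, another core gene, was at 21.5, 18.9 and 18.0 FPKM in the control libraries and 16.4, 17.9 and 15.01 FPKM in the Nfia libraries; the groups did not overlap, yet it passed the test only under upper-quartile scaling (adjusted p = 0.083 as deposited, 0.048 with that scaling).

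The other IFT-B genes did not pass. Ift20, which also links the Golgi to the cilium, was at 40.6 ± 3.30 FPKM (control) against 41.8 ± 2.66 FPKM (Nfia) (adjusted p = 0.684), and Ift27, a small GTPase that helps the BBSome leave the cilium, was at 32.8 ± 2.25 FPKM (control) against 36.8 ± 2.81 FPKM (Nfia) (adjusted p = 0.138). The ratio of Ift22 to Ift27 was 1.54, 1.31 and 1.40 in the control and 1.02, 1.04 and 1.08 in the Nfia libraries, without overlap. The ratio of Ift46 to Ift20 was 0.498, 0.540 and 0.427 against 0.379, 0.370 and 0.405, again without overlap. Ift57 (12.9 and 13.9 FPKM in control and Nfia), Ift88 (6.24 and 5.93 FPKM) and Ift172 (6.79 and 6.70 FPKM) had adjusted p-values of 0.304, 0.522 and 0.854. Their 95% intervals of the log2 difference were -0.06 to 0.24, -0.22 to 0.10 and -0.17 to 0.13.

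IFT-A, the complex of retrograde transport and membrane protein entry, had 1 of its 3 Ift-named genes lower. Ift122 (chr6:115853379-115926699) was at 9.35, 9.06 and 9.13 FPKM in the control libraries and 8.19, 7.67 and 8.20 FPKM in the Nfia libraries, with the groups apart (log2 difference -0.18 with an SE of 0.05, adjusted p = 0.0352), but no longer passed whichever library was dropped (adjusted p = 0.0644 to 0.122). Its span overlaps that of Mbd4. Ift43 was at 26.1 ± 0.421 FPKM (control) against 25.8 ± 1.69 FPKM (Nfia) (adjusted p = 0.822) and Ift140 at 8.25 ± 0.395 FPKM (control) against 8.66 ± 0.0911 FPKM (Nfia) (adjusted p = 0.389). Of 10 IFT genes known by other names, 2 were lower and 0 higher: Wdr19, of IFT-A, fell from 4.54 ± 0.315 to 3.15 ± 0.222 FPKM (log2 difference -0.42 with an SE of 0.08, adjusted p = 0.00846), and Ttc26, of the IFT-B core, fell from 5.02 ± 0.472 to 3.62 ± 0.136 FPKM (log2 difference -0.38 with an SE of 0.08, adjusted p = 0.0122). Both held without any 1 library. The ratio of Wdr19 to Ift140 was 0.539, 0.513 and 0.600 in control and 0.388, 0.358 and 0.344 with Nfia, without overlap. Over all 6 IFT-A genes 2 were lower, over all 12 core IFT-B genes 4, over the 6 peripheral IFT-B genes 1, and none was higher.

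The motors that move IFT trains had 5 of 8 tested genes lower and 1 higher, with a median log2 difference of -0.20. The 5 became 3 without control 3, Nfia 1 or Nfia 2. All 3 genes of the heterotrimeric kinesin were lower: Kifap3 (log2 difference -0.24 with an SE of 0.05, adjusted p = 0.00954), Kif3a (log2 difference -0.19, adjusted p = 0.0278) and Kif3b (log2 difference -0.18, adjusted p = 0.0283). These kinesin genes also serve transport outside the cilium. Of the retrograde dynein, the intermediate chain gene Wdr34 fell from 17.002 ± 1.28 to 12.05 ± 0.837 FPKM (log2 difference -0.46 with an SE of 0.07, adjusted p = 0.00449) and the light intermediate chain gene Dync2li1 from 18.5 ± 1.87 to 12.5 ± 1.73 FPKM (log2 difference -0.53 with an SE of 0.11, adjusted p = 0.0121). Its heavy chain gene Dync2h1 went the other way, from 3.67 ± 0.140 to 4.502 ± 0.255 FPKM (log2 difference 0.24, adjusted p = 0.0383). Wdr34, Dync2li1 and Kifap3 held without any 1 library. Kif3a lost its call without control 1, control 3, Nfia 1 or Nfia 2 (with adjusted p = 0.0634 to 0.0868), Kif3b without control 2, control 3, Nfia 1 or Nfia 2 (0.0709 to 0.0942) and Dync2h1 without control 1, control 2, control 3, Nfia 2 or Nfia 3 (0.0668 to 0.111).

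**Figure D3:**
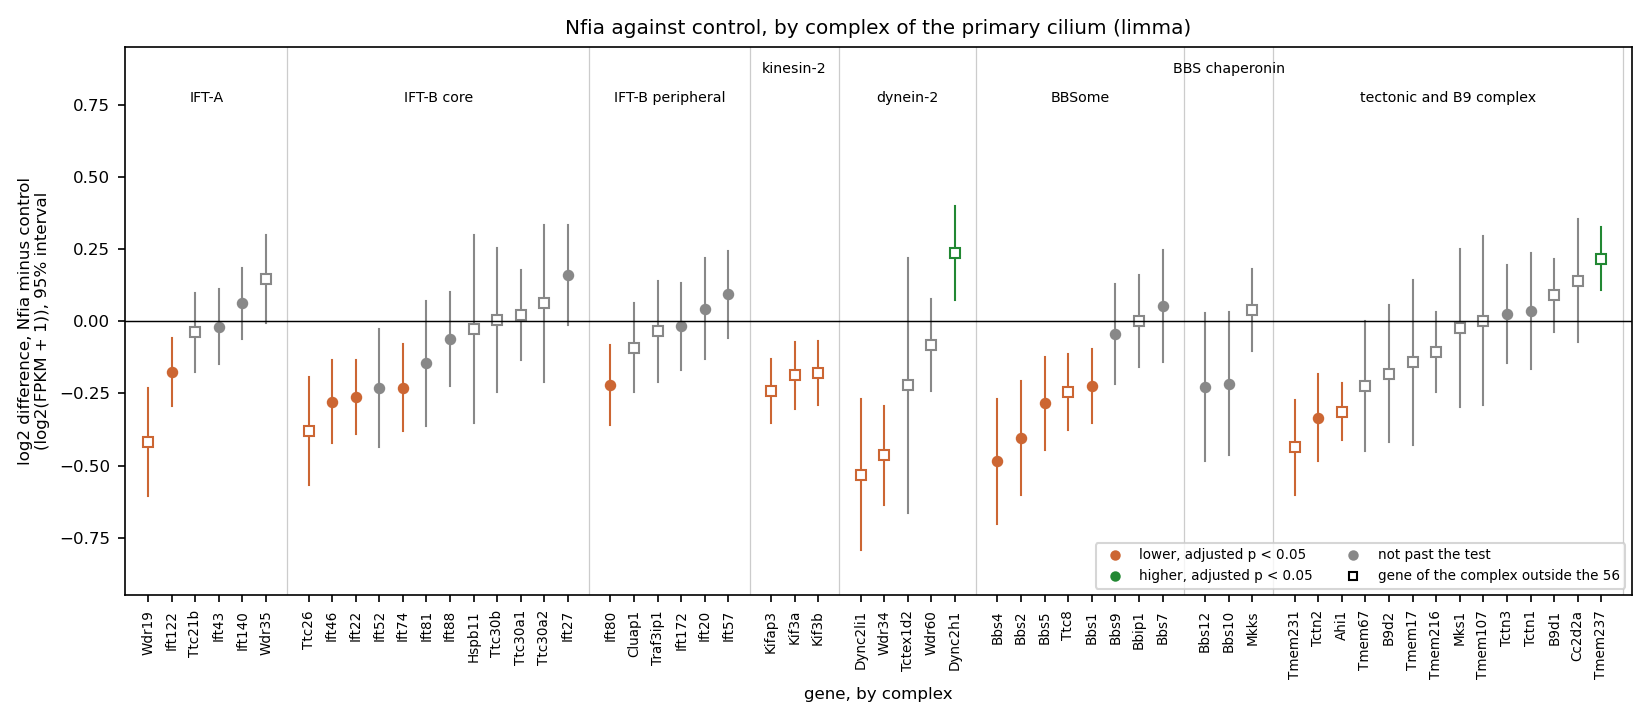
Log2 difference (Nfia minus control, log2(FPKM + 1)) with its unadjusted 95% interval for the genes of 8 complexes of the primary cilium. Filled circles are genes among the 56 and open squares other genes of the complex, and colour marks the call by adjusted p. Most complexes hold lower genes beside genes whose interval spans 0, and only the dynein of IFT and the tectonic complex also hold a gene that was higher.

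Of the 3 tectonic genes, 1 was lower. Tctn2 (chr5:124598749-124627738), a membrane protein of the transition zone, was at 7.50, 6.82 and 6.85 FPKM in the control libraries and 5.30, 5.17 and 5.71 FPKM in the Nfia libraries. The groups did not overlap and Tctn2 fell by 23.6% (log2 difference -0.33 with an SE of 0.06, adjusted p = 0.00901), which held without any 1 library. Tctn1, the secreted tectonic, was at 3.82, 3.53 and 3.84 FPKM in the control libraries and 3.47, 3.78 and 4.30 FPKM in the Nfia libraries, and its Nfia libraries spanned the controls (adjusted p = 0.785; 95% interval -0.17 to 0.24). Tctn3 was at 4.01 ± 0.162 FPKM (control) against 4.10 ± 0.289 FPKM (Nfia) (adjusted p = 0.817; interval -0.15 to 0.19). The ratio of Tctn2 to Tctn1 was 1.96, 1.93 and 1.78 in the control and 1.52, 1.37 and 1.33 in the Nfia libraries, without overlap. That of Tctn2 to Tctn3 was 1.96, 1.65 and 1.68 against 1.29, 1.18 and 1.495, also without overlap. The span of Tctn1 overlaps that of Hvcn1.

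Rpgrip1l, a scaffold of the transition zone, and Arl13b, a GTPase of the ciliary membrane, had differences of opposite sign, and neither passed the test. Rpgrip1l was at 3.71, 3.36 and 3.64 FPKM in the control libraries and 3.25, 3.30 and 3.08 FPKM in the Nfia libraries, with all Nfia values lower (adjusted p = 0.239). Arl13b was at 8.71, 8.65 and 7.61 FPKM in the control libraries and 8.78, 9.77 and 9.56 FPKM in the Nfia libraries, with all Nfia values higher (adjusted p = 0.134). Its span overlaps that of Stx19.

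Of 21 further genes tested from a list drawn up for the transition zone, 3 were lower and 3 higher, near the shares of all genes (15.1% and 16.1%). The genes of that list need not all act there. Without control 2 the lower genes numbered 5, and without Nfia 2 the higher genes 1. Rpgr (log2 difference -0.49, adjusted p = 0.00258), Ahi1 (-0.31, adjusted p = 0.00259) and Tmem231 (-0.44, adjusted p = 0.00481) fell. The kinase gene Nek8 (0.51, adjusted p = 0.00949), Tmem237 (0.22, adjusted p = 0.0126) and Cep290 (0.17, adjusted p = 0.0451) rose. Cep290 no longer passed whichever library was dropped (adjusted p = 0.0768 to 0.149), and Tmem237 no longer passed without Nfia 2 (0.0527). Cep290 also missed the threshold with no filter and under upper-quartile and median-of-ratios scaling. Apart from Ttc8 and Cep290, none of the 10 BBS-linked genes under other names passed.

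Of 18 basal body genes, 3 rose and 2 fell, again near the shares of all genes. Those that rose were Fgfr1op (log2 difference 0.31, adjusted p = 0.00409) and the distal appendage genes Cep83 (0.30, adjusted p = 0.0064) and Cep164 (0.23, adjusted p = 0.035). Cep19 (-0.31, adjusted p = 0.0267) and the vesicle GTPase gene Rab11a (-0.20, adjusted p = 0.0374) fell. Cep164 no longer passed whichever library was left out (0.0647 to 0.103), Cep19 without control 1, control 2, Nfia 1 or Nfia 3 (0.0735 to 0.0865) and Rab11a without control 1, control 3, Nfia 1, Nfia 2 or Nfia 3 (0.0663 to 0.111).

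Of 15 genes of ciliary membrane traffic and signalling tested, 4 rose and 0 fell (3 were lower at an unadjusted p under 0.05). Adcy3, the adenylyl cyclase used as a marker of neuronal cilia, rose from 1.73 ± 0.0190 to 3.87 ± 0.163 FPKM (log2 difference 0.84 with an SE of 0.07, adjusted p = 0.000604) and was 2.24 times as high. Tulp3, which brings receptors into the cilium, had a log2 difference of 0.29 (adjusted p = 0.014), Pkd2 0.23 (adjusted p = 0.0308) and Pkd1 0.37 (adjusted p = 0.0482). Adcy3 held without any 1 library. The 4 became 1 without Nfia 3 and 2 without control 1, control 2, Nfia 1 or Nfia 2. Under upper-quartile scaling 2 of the list rose and 1 fell, and with the replicate number as a block 4 rose and 2 fell. Tulp3 lost its call without Nfia 2 or Nfia 3 (with adjusted p = 0.0506 to 0.0598), Pkd2 without control 1, control 2, control 3, Nfia 1 or Nfia 3 (0.0636 to 0.0929) and Pkd1 without control 1, control 2, Nfia 1, Nfia 2 or Nfia 3 (0.0692 to 0.144).

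The motile cilium genes that passed the filter belong to the radial spokes and the tektins. Rsph3b and Rsph3a, closely similar copies of a spoke stalk gene, stood far above the other motile genes. Rsph3b (chr17:6904716-6948356) was at 13.5, 13.9 and 13.3 FPKM in the control libraries and 15.01, 15.3 and 16.7 FPKM in the Nfia libraries, with all Nfia values higher (log2 difference 0.20 with an SE of 0.05, adjusted p = 0.0315). It lost its call without control 1, control 2, control 3, Nfia 2 or Nfia 3 (with adjusted p = 0.0616 to 0.101) and under upper-quartile scaling. Rsph3a was at 12.3, 14.0 and 13.3 FPKM in the control libraries and 13.3, 13.7 and 13.6 FPKM in the Nfia libraries, with the groups overlapping (adjusted p = 0.656). Since reads may fit both copies and their assignment is not stated, the split between them is uncertain. Rsph9, a spoke head gene, was at 3.52 ± 0.846 FPKM (control) against 2.91 ± 0.543 FPKM (Nfia) (adjusted p = 0.397), with a span that overlaps that of Mrps18a, and the tektin gene Tekt2, of the microtubule doublet lumen, was at 2.06, 1.55 and 1.57 FPKM in the control libraries and 1.40, 1.32 and 1.47 FPKM in the Nfia libraries, lower in every Nfia library without passing (adjusted p = 0.261).

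The other 25 motile genes had a mean below 1 FPKM and were not part of that test. Their Nfia mean was below the control mean in 20 and above it in 5. In 7 of the 25 every Nfia library lay below every control library and in 1 above, where 8.55% and 6.5% of all genes above 0 and below 1 FPKM did so. Level bears on this share: among the 12 motile genes between 0.1 and 1 FPKM, 5 were lower and 1 higher without overlap, against 15.6% and 10.3% of the 2900 genes in that range. In the fit with no filter, in which 19.3% of 19184 genes passed (9.55% lower and 9.74% higher), 3 of the 29 motile genes were lower (Dnah1, Dnah11 and Dnaic1) and 2 higher (Rsph3b and Hydin). The genes named below the filter were picked after their values were seen, so that all 29 are accounted for.

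Of the axonemal dynein heavy chains, the motors that bend the axoneme, Dnah1 had the highest level. Dnah1 (inner arm) was at 0.996, 1.16 and 1.06 FPKM in the control libraries and 0.507, 0.455 and 0.603 FPKM in the Nfia libraries, 2.05-fold higher in control. It was just below the filter at a mean of 0.795 FPKM, and its groups lay far apart (adjusted p = 0.00638 with no filter). Dnah11 (outer arm) was at 0.274, 0.332 and 0.164 FPKM in the control libraries and 0.123, 0.0823 and 0.0586 FPKM in the Nfia libraries, 2.92-fold higher in control (adjusted p = 0.0497 with no filter). Its span overlaps that of Cdca7l. Dnah5 (outer arm) was at 0.0960, 0.0715 and 0.0894 FPKM in the control libraries and 0.0564, 0.0501 and 0.0347 FPKM in the Nfia libraries, without overlap, and did not pass in that fit (adjusted p = 0.173). The other 8 heavy chains (Dnah2, Dnah6, Dnah7a, Dnah7b, Dnah8, Dnah9, Dnah10 and Dnah17) overlapped between the groups, with means over the libraries of 0.00521 FPKM for Dnah6 to 0.158 FPKM for Dnah17. Dnah7a and Dnah7b are similar copies, so their values are uncertain where reads fit both.

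Among the smaller dynein chains, the intermediate chain gene Dnaic1 was at 0.663, 0.660 and 0.620 FPKM in the control libraries and 0.365, 0.408 and 0.361 FPKM in the Nfia libraries. The replicates lay close together and the groups apart, 1.71-fold higher in control (adjusted p = 0.00876 with no filter). The span of Dnaic1 overlaps that of Enho. Dnaic2 (0.130 and 0.102 FPKM in control and Nfia) overlapped between the groups, and so did Dnali1, where control 2 alone, at 0.607 FPKM, stood above all other libraries (0.0785 to 0.231 FPKM).

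The low spoke and tektin genes varied more. Rsph1, a spoke head gene, was at 0.693, 1.36 and 1.52 FPKM in the control libraries and 0.522, 0.0423 and 0.405 FPKM in the Nfia libraries, with a ratio of 3.69 between the control and Nfia means and a wide spread in both groups (adjusted p = 0.0539 with no filter). Its span overlaps that of Ubash3a. Rsph4a was at 0.0536, 0.0474 and 0.0941 FPKM in the control libraries and 0.0291, 0 and 0.0282 FPKM in the Nfia libraries, without overlap. Rsph6a overlapped, at 0.141 and 0.0448 FPKM in control and Nfia. Tekt1 was at 1.23, 1.02 and 0.773 FPKM in the control libraries and 0.804, 0.711 and 0.484 FPKM in the Nfia libraries, with the highest Nfia value above the lowest control value. Tekt5 was at 0.289 and 0.153 FPKM with overlap. Tekt3 was listed at 0 in every library but Nfia 1 (0.0435 FPKM), and Tekt4 in every library but control 3 (0.0305 FPKM) and Nfia 3 (0.0366 FPKM). The ratio of these Tekt4 values, 1.20, equals the ratio of depth between the libraries, as for equal numbers of fragments.

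The central apparatus genes, which encode the axis of the motile axoneme, stood at very low levels and did not share a direction. Spag6 was at 0.654, 0.667 and 1.27 FPKM in the control libraries and 0.428, 0.359 and 0.451 FPKM in the Nfia libraries; the groups did not overlap, control 3 stood above the other controls, and the difference did not pass with no filter (adjusted p = 0.0948). Hydin was at 0.0712, 0.0996 and 0.114 FPKM in the control libraries and 0.165, 0.190 and 0.178 FPKM in the Nfia libraries, all Nfia values higher (adjusted p = 0.0437 with no filter, and 0.229 with a pseudocount of 0.1 and a filter of 0.1 FPKM). Spag16 (0.126 and 0.0976 FPKM in control and Nfia) and Spag17 (0.0679 and 0.0421 FPKM) overlapped. With that pseudocount and filter, chosen after the data were seen, 26.2% of 15437 genes passed (12.8% lower and 13.4% higher), and the motile genes that passed were Dnah1 (log2 difference -0.92, adjusted p = 0.00975), Dnaic1 (-0.65, adjusted p = 0.0407) and Rsph3b (0.21, adjusted p = 0.0381).

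**Figure D4:**
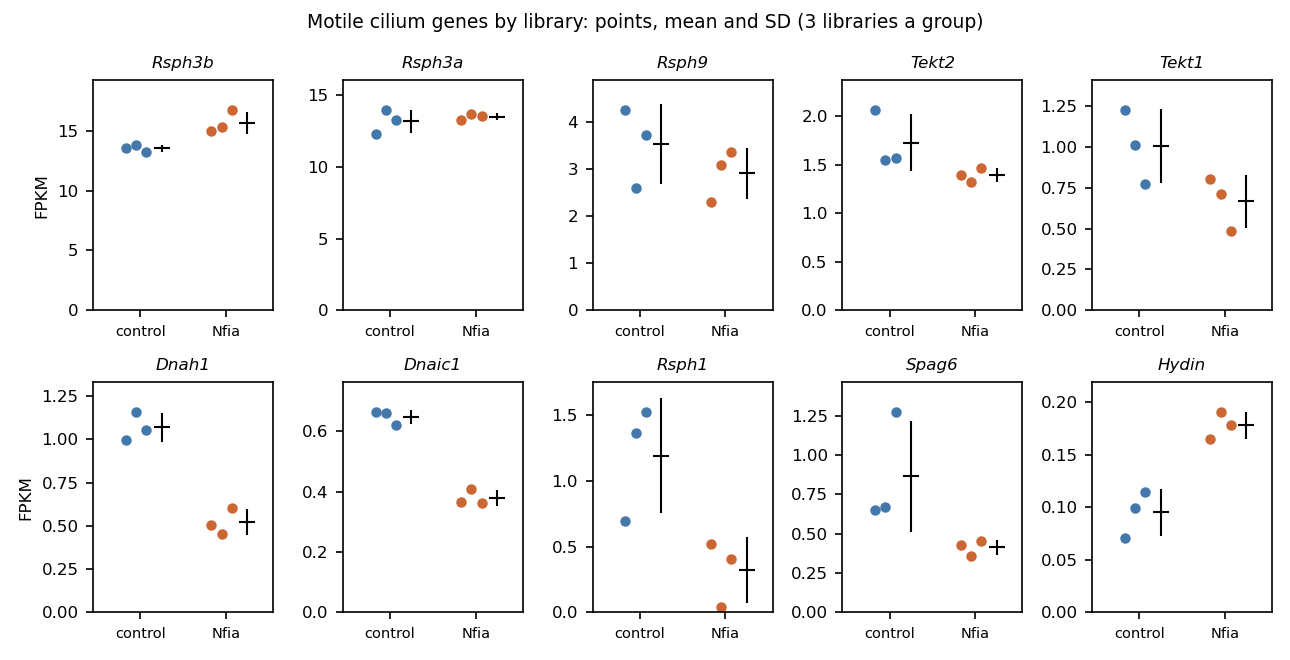
FPKM of 10 motile cilium genes in each library, with the mean and SD of 3 libraries beside the points; each axis starts at 0 and the scales differ. Dnah1, Dnaic1, Rsph1, Spag6 and Tekt2 are lower in every Nfia library, Rsph3b and Hydin higher, and Rsph3a, Rsph9 and Tekt1 overlap.

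Some further genes of the motile axoneme fell with Nfia. Of 39 such genes matched, 13 passed the filter, and of these 6 were lower and 0 higher, with a median log2 difference of -0.18. The 6 became 3 without Nfia 2, 4 without control 1, control 2, control 3 or Nfia 1, and 5 without Nfia 3. Tppp3, a tubulin polymerisation gene, fell from 2.55 ± 0.282 to 1.29 ± 0.120 FPKM (log2 difference -0.63 with an SE of 0.10, adjusted p = 0.00515). Ccdc40, a ruler of dynein arm spacing, fell from 1.99 ± 0.179 to 1.07 ± 0.164 FPKM (log2 difference -0.53 with an SE of 0.11, adjusted p = 0.0126). The light chain gene Dnal1 (-0.31, adjusted p = 0.0117) and Ropn1l (-0.55, adjusted p = 0.0207) followed. The first 3 held without any 1 library and Ropn1l lost its call without Nfia 2 (with adjusted p = 0.0591). Ccdc151 (-0.43, adjusted p = 0.0351), a dynein arm docking gene, no longer passed without control 1, control 2, control 3, Nfia 1 or Nfia 2 (0.0547 to 0.0815), and the kinase gene Stk36 (-0.24, adjusted p = 0.0351) whichever library was left out (0.0581 to 0.102). Among 8 dynein assembly genes tested, 0 were lower and 2 higher: Ruvbl2, an ATPase with many other roles (log2 difference 0.22, adjusted p = 0.0174), and Dnaaf2 (0.27, adjusted p = 0.0448). Ruvbl2 lost its call without control 3 or Nfia 2 (0.0574 to 0.0577) and Dnaaf2 without control 1, control 3, Nfia 1 or Nfia 2 (0.124 to 0.134).

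Regulators of the cilium programme were measured beside their targets. Gmnc, which starts multiciliated cell formation, was at 6.60, 6.26 and 7.59 FPKM in control and 1.66, 1.82 and 1.67 FPKM with Nfia (log2 difference -1.52 with an SE of 0.09, adjusted p = 0.000179), and its partner in that programme, Mcidas, was at 0.206, 0.266 and 0.245 FPKM in the control libraries and 0, 0.0189 and 0.0678 FPKM in the Nfia libraries. Foxj1, the main activator of motile cilium genes, was at 3.64, 3.28 and 4.03 FPKM in the control libraries and 3.12, 3.13 and 2.76 FPKM in the Nfia libraries, lower in every Nfia library but not past the test (adjusted p = 0.111). Rfx3, a factor that binds the X-box, fell from 12.5 ± 0.850 to 10.6 ± 0.606 FPKM (log2 difference -0.22 with an SE of 0.07, adjusted p = 0.0439), and lost its call without control 1, control 3, Nfia 1, Nfia 2 or Nfia 3 (with adjusted p = 0.0626 to 0.134). In all, 2 of 13 such regulators tested were lower, close to the 15.1% of all genes, and 0 higher (4 were lower and 4 higher at an unadjusted p under 0.05). Markers of ependymal and choroid plexus cells were low apart from Otx2: 4 of 12 passed the filter, of which 2 fell (Ttr, -0.91, and Enpp2, -0.53). Their summed level was 44.7 to 47.9 FPKM in control and 37.8 to 41.2 FPKM with Nfia. Most of that sum came from Otx2, at a mean of 34.0 FPKM over the 6 libraries, which did not pass the test. Tmem212 was listed at 0 in all Nfia libraries and in 2 control libraries. Their part in the motile gene differences was not tested. Enpp2 lost its call without control 2, control 3, Nfia 2 or Nfia 3 (with adjusted p = 0.0519 to 0.0785). Microglia and blood markers summed to at most 3.54 FPKM in any library, and of 8 endothelial and mesenchymal markers tested only Cldn5 changed (log2 difference -0.61 with an SE of 0.13, adjusted p = 0.0121). Mesenchymal markers set library 1 of each group apart from the others: Col3a1 was at 1.32, 4.71 and 5.02 FPKM in the control libraries and 1.19, 5.54 and 4.84 FPKM in the Nfia libraries, lowest in library 1 of each group, as were Col1a1, Col1a2, Lum and Dcn.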

How the data were processed

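Poly(A) RNA was made into directional libraries, per the labels' protocols. Per the submitters' processing notes, the tools were Bowtie version 1, Cufflinks, Cuffdiff, SAMtools, TopHat and MACS version 1.4 and the build mm10; roles and order are not stated. Each library was deposited by the authors as FPKM per gene symbol, a unit read from the values since there is no header. No source used here gives the annotation, filters or use of strand, so overlapping genes (12 cilium genes share their span with another coding gene) cannot be told apart with certainty. Values were used as deposited, transformed to log2(FPKM + 1) and compared over the 12537 genes whose mean reached 1 FPKM, two-sided, with a variance trend and 4 residual degrees of freedom (limma 3.58.1, R 4.3.3). The fit was also run on simulated normal values drawn with limma's own spread, which cannot show how well that model suits these data. Named are members past an adjusted p of 0.05, the 3 most abundant of each role, members apart between groups by at least 0.5, and up to 4 called genes of each list; the other members are given to account for all. The members and gene lists were chosen with earlier results of these data known. Positions and promoters are from RefSeq, GRCm38.p6. Alternatives were a pseudocount of 0.1, no filter, upper-quartile and median-of-ratios scaling, the replicate number as a block, and leaving out each library. A pseudocount of 0.1 with a filter of 0.1 FPKM was added after the data were seen.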

Additional observations from a re-analysis of the deposited data

How the results depend on the processing

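The 10 lower primary genes numbered 5 to 8 when 1 library was left out, as did the lower cilium genes as a whole, and Bbs4, Bbs2, Ift22 and Tctn2 passed under all 12 alternatives run. With no filter 7 primary genes were lower. Bbs1, Ift122 and Ift80 missed the threshold there (limma, adjusted p = 0.0517, 0.0667 and 0.0520). Of the motile genes, which hold all higher cilium genes, 1 was higher (Rsph3b). That count was 0 to 1 with 1 library left out, 0 under upper-quartile scaling and 2 with no filter (Rsph3b and Hydin), where 3 motile genes were lower. Without Nfia 2 the counts over all genes fell most, to 1290 higher and 1251 lower, and the leave-one-out counts reached 1625 higher and 1572 lower. With a pseudocount of 0.1 and a filter of 0.1 FPKM, 2 motile genes were lower and their median log2 difference was -0.27. Counting Rpgrip1l and Arl13b as primary left 10 lower genes. None of the named genes that passed the test changed direction under an alternative. Some lost their call with all libraries kept. With no filter, Dnaaf2, Cep164, Rab11a, Cep290, Pkd2, Pkd1, Dync2h1, Rfx3 and Stk36 did so, beside the primary genes above. Under upper-quartile scaling Rsph3b, Dnaaf2, Cep164, Cep290, Pkd2, Pkd1 and Dync2h1 did so, and under median-of-ratios scaling Cep290 and Pkd1. Cep290, Pkd1 and Rfx3 missed the threshold with a pseudocount of 0.1 and a filter of 0.1 FPKM. Differences that did not pass could change sign, as that of Bbs7 did without Nfia 2. The median log2 difference of the 3 tectonic genes also changed sign, from 0.02 with all libraries to -0.03 without Nfia 3.

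Libraries share replicate numbers across groups, but the deviations of same-numbered libraries correlated at 0.03, -0.01 and 0.05 over genes, and control 1 correlated best with Nfia 2, so the numbers were not taken as pairs. Mesenchymal markers are an exception, being lowest in library 1 of both groups. With the replicate number as a block, 7 primary genes were lower (Ift74, Ift80 and Ift122 had adjusted p = 0.0516, 0.0515 and 0.0519), 0 cilium genes and 0 motile genes were higher, and 2130 genes were higher and 1916 lower in all. Rsph3b (0.0556), Rab11a (0.0622), Cep290 (0.0744), Enpp2 (0.0596), Dync2h1 (0.0536), Ccdc151 (0.0587) and Stk36 (0.0564) also missed the threshold under the block. The absolute depth is unknown, which limits what can be said of the 25 motile genes below 1 FPKM.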
